A study of Mus musculus with 15 samples.

Results

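The potassium channel genes of the mouse thalamus were described across 4 groups of RNA-seq libraries. The members are all gene symbols made of Kcn, letters and a number, which leaves out the antisense transcript Kcnq1ot1, and without Kcnj13 and Kcne2, which mark the choroid plexus. This gave 90 genes of the 25080 listed, and 66 of them reached 1 TPM (a length-corrected share of a library's transcripts) in at least 3 libraries, among 13471 genes that did so. Whole thalamus was microdissected from male mice of 2 to 4 months on a C57Bl6J background. By the study's description the mice carried a floxed Maged1 allele with loxP sites around exons 4 to 12. In the Maged1-cKO mice a Vglut2-Cre driver deleted these exons, so that only cells that express or once expressed Vglut2 were targeted. The study describes the control mice as floxed littermates without Cre, while the sample titles call them Maged1 WT. After 3 days of habituation with saline injections, the mice received cocaine (20 mg/kg, intraperitoneal) or saline for 5 days. The tables used here hold 4 libraries each of control and cKO mice after saline, 4 labelled control cocaine and 2 labelled cKO cocaine. The study's methods call the thalamus samples independent, and the tests measure the spread between these libraries.

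Potassium channels let potassium leave the cell and thereby set the resting potential, end action potentials and limit firing. Voltage-gated Kv channels are built from Kcna, Kcnb, Kcnc and Kcnd pore subunits, with silent Kcnf, Kcng, Kcns and Kcnv subunits that conduct only within mixed channels. KCNQ channels carry the M current, and Kcnh genes encode the EAG, ERG and ELK channels. Kcnma, Kcnn and Kcnt channels open with intracellular calcium or sodium, and Kcnu was grouped with them. Inward rectifiers (Kcnj) include the GIRK channels that G-protein-coupled receptors open, and the Kcnk leak channels hold the resting potential from which thalamic neurons switch between tonic and burst firing. Kcnab, Kcne, Kcnip and Kcnmb genes encode auxiliary subunits that tune these pores.

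Some features of the whole series touch every result below. Maged1, the targeted gene, was listed at 164 to 189 TPM in the control saline libraries and at 69.2 to 89.4 TPM in the cKO saline libraries. In the libraries labelled control cocaine it was at 49.7 to 76.7 TPM, and in the libraries labelled cKO cocaine at 144 and 140 TPM, which goes against both labels. The genotype tag of 4 saline libraries also names the other genotype than their title. Maged1 goes with the titles there, at 168 and 166 TPM in control saline replicates 3 and 4. It was at 89.4 and 86.8 TPM in cKO saline replicates 1 and 2. A fit without these 4 has fewer saline libraries and keeps every cocaine library, where Maged1 goes against the label. Hence the cocaine groups are called by their labels throughout, and the mean of the cocaine effects under both genotype labels was tested as well, since exchanging the labels of the cocaine groups leaves it as it is. The 5 most abundant genes, Bc1, Gm20594, Rmrp, Rn45s and Rpph1, took 18.9 to 21.6% of the listed TPM after saline and 36.02 to 41.6% after cocaine. Values were therefore divided by TMM factors, scale factors that align the bulk of the genes between libraries, and are given below as scaled TPM. On the TPM as deposited the median of all tested genes fell by 0.34 (log2) with cocaine under the control label and by 0.35 under the cKO label, and every change below is relative to the bulk of genes. The 8 thalamic relay markers were listed above 0 in every library, at a summed scaled TPM of 447 to 671. With cocaine under the control label 3 of them rose and 1 fell, against 15.0% and 9.35% of all tested genes.

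Marker lists of neighbouring tissue differed between libraries. The summed hypothalamic markers (10 genes) ran from 136 to 468 scaled TPM in control mice after saline, against 11.4 to 150 in cKO mice. With cocaine they ran from 4.39 to 129 under the control label and stood at 35.7 and 76.05 under the cKO label. Of the 8 of them tested, 5 were lower with cocaine under the control label, against 9.35% of all tested genes. Oxt, Hcrt and Agrp were listed at 0 in 3, 3 and 7 libraries. The habenula list (9 genes) reached 192 in control cocaine replicate 1 against 11.5 to 63.5 in the other libraries of that label. The choroid plexus list (7 genes) reached 1455 in control saline replicate 1 against 15.9 to 57.2 in the other control saline libraries, and the cortex and hippocampus list (7 genes) reached 124 in cKO saline replicate 4 against 33.4 to 40.5. Oligodendrocyte markers (6 genes) summed to 1401 to 1670 in control mice after saline and to 1727 to 2443 in cKO mice after saline. With cocaine they summed to 1557 to 2430 under the control label and to 1863 and 1883 under the cKO label. Under the control label 2 of these 6 genes rose with cocaine, against 15.0% of all tested genes. In whole tissue, fewer cells of a type and less RNA per cell cannot be told apart, and the part of these lists in the results below was not tested.

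**Figure D1:**
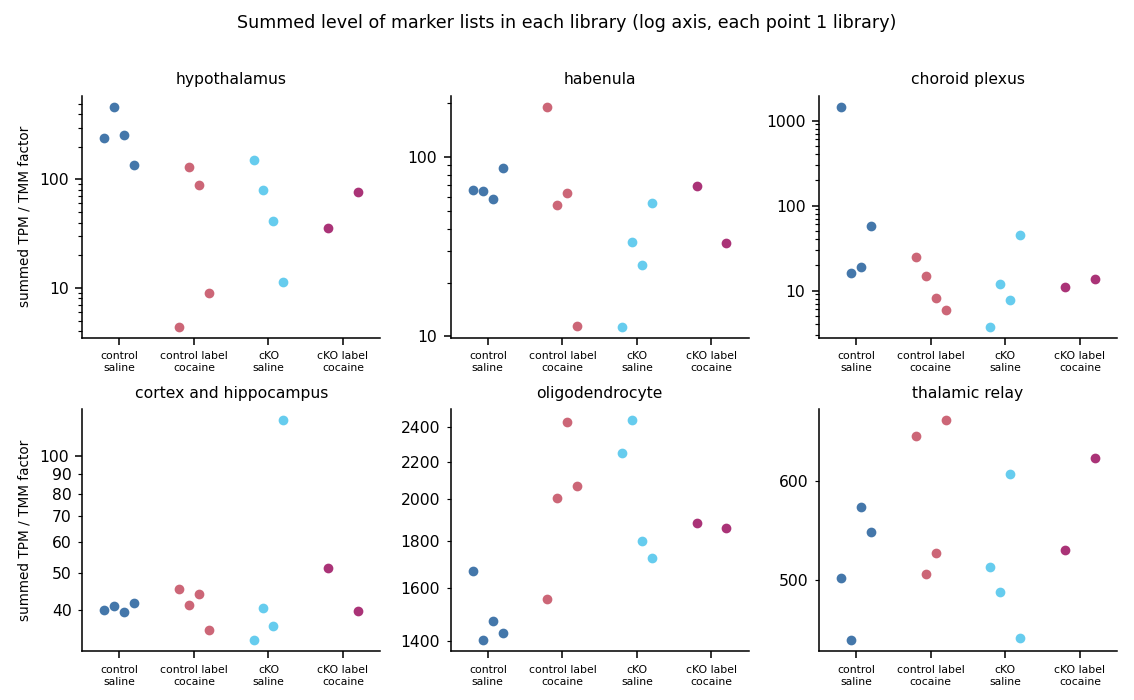
Summed scaled TPM of 6 marker lists (log axis) in each of the 14 libraries, 1 point per library, by group. The hypothalamic sums of control saline (136 to 468) lie above the other groups, except that 1 cKO saline library at 150 passes the lowest of them, and single libraries stand apart for habenula (192), choroid plexus (1455) and cortex (124).

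In control saline thalamus the potassium channel genes were compared per length, as scaled TPM. The highest levels were those of Kcnab2, the beta subunit that helps place Kv channels along axons, at 63.4 ± 4.20 scaled TPM (SD, n = 4) and of Kcnj10, the glial inward rectifier that clears extracellular potassium, at 62.5 ± 3.06, and the libraries of these genes overlapped. Below them lay Kcnc1, a fast delayed rectifier of neurons that fire at high rates, at 43.6 ± 2.85, and Kcnma1, the large-conductance calcium-activated BK channel, at 37.8 ± 3.42. Kcnip4, a calcium sensor bound to Kcnd channels, followed at 32.8 ± 2.32 and Kcnj9, a GIRK subunit, at 31.9 ± 2.91. In all, 29 of the 66 tested members were at 10 scaled TPM or more, and the median member was at 8.39, against 7.14 for the median of all tested genes. In the order of the 66 levels, 8 of 65 neighbouring pairs had control saline libraries that did not overlap, so most ranks were not separated by these libraries.

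Within each role a few genes carried most of the signal. Among the 15 tested Kv pore subunits, Kcnd2, the pore of the transient A-type current, was at 28.5 ± 1.92, Kcna2 at 27.7 ± 2.27, Kcna6 at 23.6 ± 0.664, Kcnc2 at 18.2 ± 2.54 and Kcna1 at 17.4 ± 1.45 scaled TPM, and Kcna5 was the lowest at 1.58 ± 0.216. The 6 silent subunits were led by Kcnf1 (10.7 ± 0.813) and Kcns2 (8.76 ± 0.471). The M current genes held Kcnq3 at 19.1 ± 1.78 and Kcnq5 at 2.73 ± 0.308. Kcnh2, the ERG channel, stood at 19.4 ± 1.26, above Kcnh7 at 6.82 ± 0.237. The small-conductance channels Kcnn2 and Kcnn3 were at 9.50 ± 0.30 and 8.02 ± 0.662, above Kcnn1 at 3.17 ± 0.190, and the sodium-activated Kcnt1 (10.1 ± 1.23) stood above Kcnt2 (3.02 ± 0.105). Of the GIRK subunits, Kcnj3 was at 17.1 ± 1.38, Kcnj6 at 13.4 ± 0.759 and Kcnj5 at 2.15 ± 0.180, all below Kcnj9. The leak channel Kcnk1 was at 19.8 ± 2.47, the acid-sensitive Kcnk3 and Kcnk9 were at 10.8 ± 0.438 and 9.29 ± 0.965, and the mechanically gated Kcnk2 was at 5.68 ± 0.715. The BK accessory subunit Kcnmb4 was at 21.2 ± 2.10 and Kcnab1 at 17.2 ± 1.86, while the lowest tested member was Kcne4 at 0.458 ± 0.136.

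**Figure D2:**
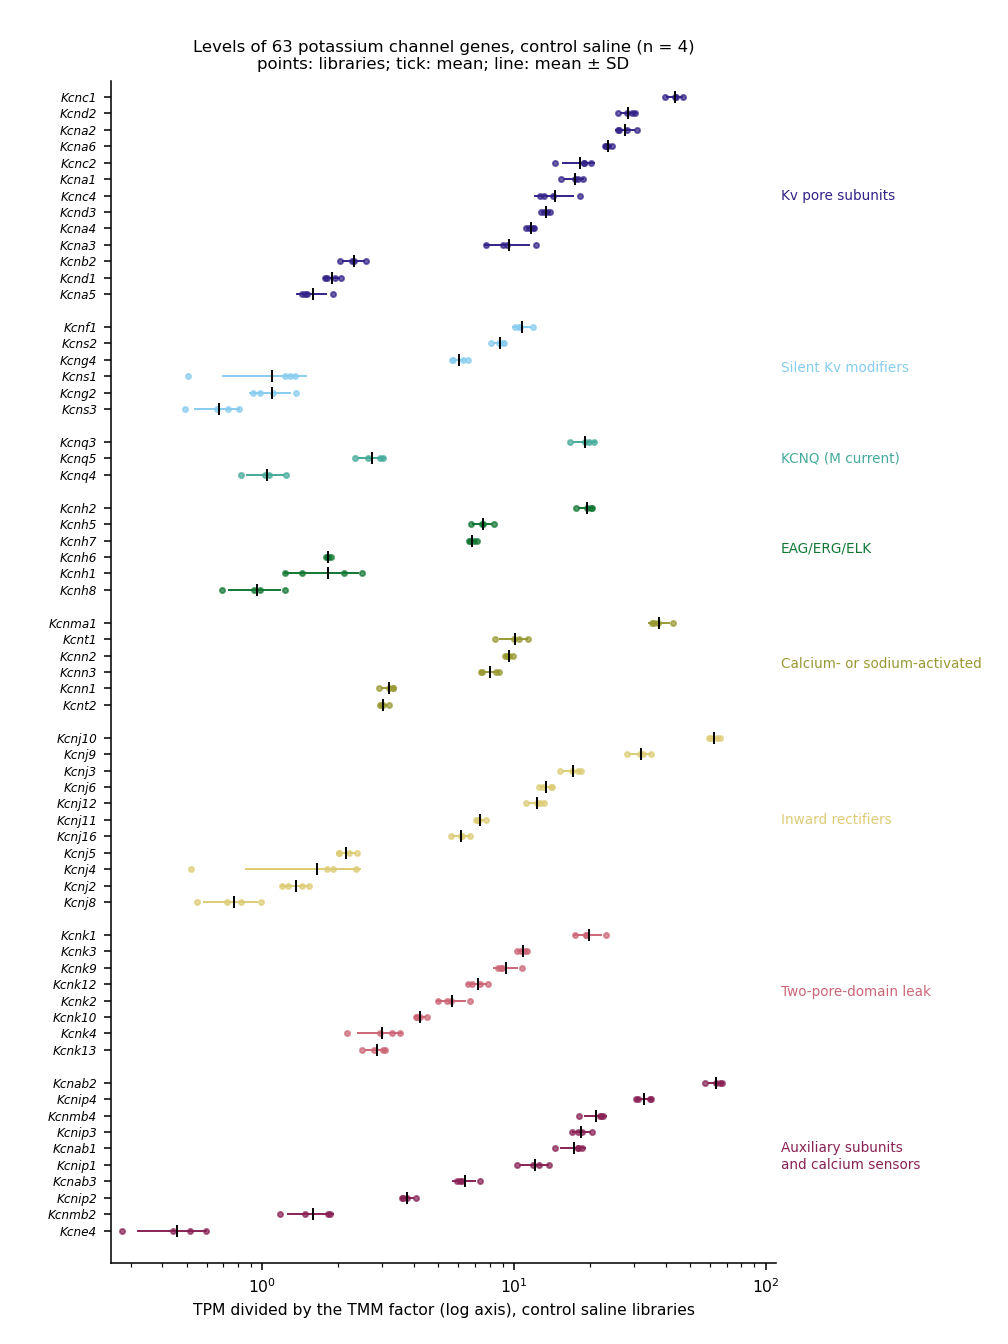
Levels of 63 of the 66 tested potassium channel genes in the 4 control saline libraries, as TPM divided by the TMM factor on a log axis, grouped by role, with each library as a point, the mean as a tick and mean ± SD as a line. Kcnab2 (63.4) and Kcnj10 (62.5) were the highest and Kcne4 (0.458) the lowest.

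The 24 members below the filter were a mixed set. Kcnk18 was listed at 0 in every library, and the highest single value among the 24 was 2.73 TPM, of Kcnh3. Just inside the filter lay Kcne4 and Kcns3, each at 1 TPM or more in 3 libraries, Kcnj8 in 4 and Kcnh8 in 6. Just outside lay Kcnh3 and Kcng3 with 2 libraries each and Kcng1 and Kcnj14 with 1 each.

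The first comparison asked which members changed with repeated cocaine under the control label. Maged1 itself was lower with cocaine here (log2 -1.08) and higher with cocaine under the cKO label (log2 1.18). Within either label, a change with cocaine and a change with the Maged1 level cannot be told apart. A member was called when its limma p-value, adjusted over all 13471 genes by Benjamini-Hochberg, was under 0.05 and its log2 fold change was at least 0.5 in size, and it is said below to have risen or fallen when it passed the adjusted p alone. In this comparison 1 of 66 members was called, Kcna5, against 3.10% of all tested genes. By the adjusted p alone 9 members rose (13.6%) and 2 fell (3.03%), against 15.0% and 9.35% of all tested genes, so the share that rose was near the background and the share that fell was below it. The median log2 fold change of the members was 0.08, against 0.01 for all tested genes. On the TPM as deposited 6 of the 9 rises turned to values below 0, while relative to the median of all genes on that scale all 11 members kept their direction.

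The rises came from several roles. Kcnn1, a small-conductance calcium-activated channel that slows firing after a spike, stood at 3.31, 2.90, 3.19 and 3.29 scaled TPM in the control saline libraries and at 4.64, 4.30, 4.43 and 4.97 in those labelled control cocaine. The groups did not overlap, and the log2 fold change was 0.47 ± 0.06 (SE, adjusted p = 0.000276). Kcnj9, a GIRK subunit through which inhibitory receptors damp excitability, went from 35.2, 28.1, 32.6 and 31.6 to 43.2, 40.1, 39.2 and 48.4 (log2 0.42 ± 0.08, adjusted p = 0.00424). Kcnip3, a calcium sensor that binds Kcnd channels and also acts as a transcriptional repressor, went from 18.0, 17.0, 18.6 and 20.5 to 26.1, 21.7, 22.6 and 26.3 (log2 0.37 ± 0.07, adjusted p = 0.00260). In both genes every library labelled control cocaine lay above every control saline library. The leak channel Kcnk3 went from 11.1, 10.3, 11.3 and 10.7 to 14.8, 12.6, 13.1 and 15.7 (log2 0.36 ± 0.08, adjusted p = 0.00594), again without overlap. None of these 4 rises was lost when any 1 library was left out. With only the libraries whose title and genotype tag agree, Kcnn1 and Kcnip3 still passed, while Kcnj9 (log2 0.43, adjusted p = 0.0614) and Kcnk3 (log2 0.38, adjusted p = 0.0700) did not.

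Kcnab2, an auxiliary subunit of Kcna channels, was at 63.2, 57.6, 65.99 and 67.0 scaled TPM after saline and at 68.2, 82.6, 82.2 and 82.4 under control cocaine (log2 0.31 ± 0.07, adjusted p = 0.00967), with replicate 1 of the latter apart from the other 3. Of the Kcna pore subunits, 3 rose and Kcna5 fell. Kcna1 and Kcna2, whose channels sit along axons, had log2 fold changes of 0.33 ± 0.10 (adjusted p = 0.0284) and 0.25 ± 0.06 (adjusted p = 0.0158), and Kcna6 one of 0.19 ± 0.06 (adjusted p = 0.0404). The rise of Kcna1 was lost without control saline replicate 1 or 2 or control cocaine replicate 2, 3 or 4 (log2 0.28 to 0.32, adjusted p 0.0621 to 0.0823), and that of Kcna2 without control saline replicate 1 (log2 0.20, adjusted p = 0.0576). That of Kcna6 was lost without any of the 4 control saline libraries, control cocaine replicate 3 or 4, or cKO saline replicate 3 (log2 0.13 to 0.19, adjusted p 0.0518 to 0.108). With only the libraries whose title and genotype tag agree, Kcnab2 and Kcna2 passed, and Kcna1 (adjusted p = 0.0650) and Kcna6 (0.209) did not.

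The 2 members that fell were low or silent subunits. Kcna5, a delayed rectifier best known from heart and vessel muscle, stood at 1.48, 1.90, 1.51 and 1.44 scaled TPM in control saline and at 0.721, 1.083, 0.649 and 1.25 under control cocaine (log2 fell by 0.56 ± 0.16, adjusted p = 0.0233). The groups did not overlap, and Kcna5 was lost without control saline replicate 2 (adjusted p = 0.0689) or control cocaine replicate 3 (adjusted p = 0.0648), and also without control saline replicate 1, control cocaine replicate 1 and cKO saline replicate 4 together, the 3 libraries whose marker lists stood apart. Kcns2, a silent subunit of mixed Kv channels, went from 9.07, 8.11, 9.14 and 8.73 to 7.11, 6.09, 7.24 and 7.30 (log2 fell by 0.32 ± 0.07, adjusted p = 0.00845), without overlap. With only the libraries whose title and genotype tag agree, neither Kcna5 (adjusted p = 0.0970) nor Kcns2 (0.0660) passed.

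By role, the Kv pore subunits held 4 rises and 1 fall among 15 tested genes, the auxiliary subunits 2 rises among 10, the silent subunits 1 fall among 6, and the calcium- or sodium-activated channels, inward rectifiers and leak channels 1 rise each among 6, 11 and 8. The 4 KCNQ and 6 EAG, ERG and ELK genes had none past the adjusted p, with log2 fold changes of 0.02 to 0.34 and of -0.50 to 0.06. Kcnc1 (log2 0.28 ± 0.11, adjusted p = 0.0743) and Kcnj10 (log2 0.19 ± 0.07, adjusted p = 0.0816) did not pass with all libraries. Without the 3 libraries whose marker lists stood apart, 13 of 66 members passed higher and 2 lower, against 13.6% and 10.2% of the 13343 genes tested in that fit. Kcnc1 (log2 0.38 ± 0.08), Kcnj10 (0.21 ± 0.07), Kcnk1 (0.28 ± 0.08) and Kcnab3 (0.60 ± 0.17) were then among those higher, and Kcnip1 (log2 -0.58 ± 0.15) was lower. Kcnab3, like Kcnj5 above, lies outside the rule by which genes were named and was chosen after its values were seen.

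The same comparison under the cKO label rested on 2 cocaine libraries. Here 1 of 66 members was called, Kcnc2, against 3.07% of all tested genes. By the adjusted p from limma no member rose and 5 fell (7.58%), against 9.19% and 10.7% of all tested genes. At an unadjusted p under 0.05 there were 3 members higher and 11 lower, 21.2% of the members against 33.7% of all tested genes. Of all 13471 genes 2187 were higher and 2358 lower at that threshold. The median log2 fold change was -0.03 for the members and 0.00 for all genes.

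The falls involved neuronal pore subunits. Kcnc2, a fast delayed rectifier of high-rate neurons, was at 24.2, 23.3, 24.6 and 22.0 scaled TPM in cKO saline and at 15.6 and 16.5 in the libraries labelled cKO cocaine (log2 fell by 0.54 ± 0.13, adjusted p = 0.0151). Kcnq3, a subunit of the M current, went from 25.8, 24.6, 25.6 and 23.0 to 17.5 and 20.2 (log2 fell by 0.38 ± 0.09, adjusted p = 0.0136). Kcnj3, the GIRK subunit that most neuronal GIRK channels share, went from 22.5, 20.4, 20.8 and 23.1 to 16.5 and 19.1 (log2 fell by 0.28 ± 0.09, adjusted p = 0.0350). In these 3 genes both cocaine libraries lay below the 4 saline libraries. Kcnb2 and Kcna4, named after their values were seen, fell by 0.37 ± 0.09 (adjusted p = 0.0139) and 0.31 ± 0.10 (adjusted p = 0.0393) on the log2 scale. Kcnc2 was lost without either library labelled cKO cocaine (adjusted p = 0.0900 and 0.0789), Kcnq3 without replicate 1 of them (0.130), Kcnb2 without replicate 2 (0.193) and Kcnj3 without either (0.281 and 0.0522) or without cKO saline replicate 1 or 4 (0.0749 and 0.0746). Kcna4 was lost in 7 of 14 such fits (adjusted p up to 0.186).

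The transcripts of these 5 genes had a median GC content of 44.4%, that of the 1441 genes that fell was 42.9%, and that of all tested genes was 49.7%. With trends in GC content and length removed, no member passed the adjusted p in this comparison, against 4.35% of all tested genes higher and 4.51% lower. The 9 members that rose under the control label had a median GC content of 54.7%, against 53.4% for all genes that rose there. With the same trends removed 10 of 66 members rose and 2 fell under that label, against 11.3% and 7.03% of all tested genes. These were not the same members, since Kcna1 (adjusted p = 0.0626), Kcna6 (0.225) and Kcnab2 (0.0700) no longer passed and 4 others did. Kcnip1, a calcium sensor of Kcnd channels, was the member with the highest log2 fold change under the cKO label (0.68 ± 0.23, adjusted p = 0.0534). It was at 8.56, 8.45, 6.93 and 5.67 scaled TPM in cKO saline and at 13.3 and 10.8 under cKO cocaine, and it passed in a fit of these 2 groups alone (adjusted p = 0.0446). All 7 ependyma and all 9 habenula markers also had a log2 fold change above 0 in this comparison, with 1 ependyma marker past the adjusted p, and their part in the result was not tested.

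**Figure D3:**
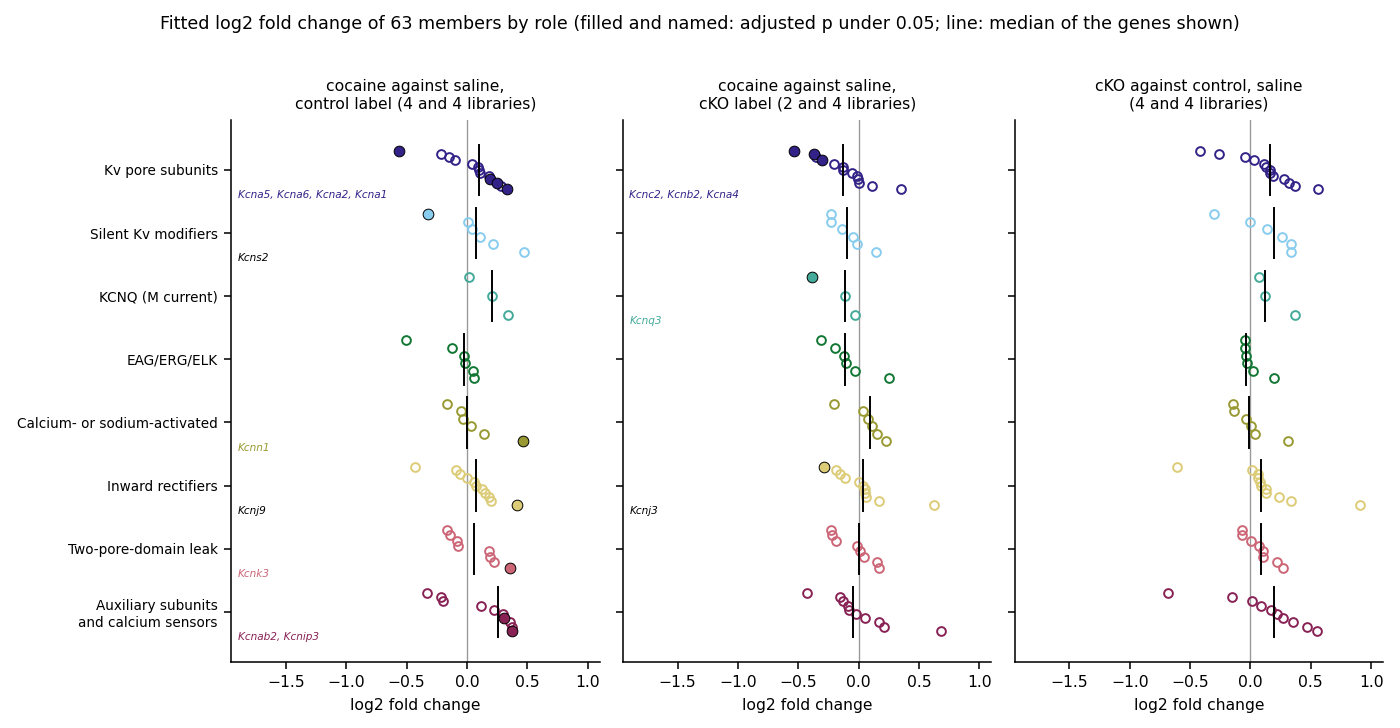
Fitted log2 fold change (x axis) of 63 of the 66 tested members by role for 3 comparisons, 1 point per gene, filled and named where the adjusted p was under 0.05, with the median of the genes shown in each role as a line. Under the control label rises (Kcnn1 at 0.47) and falls (Kcna5 at -0.56) both appear, under the cKO label 5 members fell, and between genotypes after saline none passed. All values are after TMM scaling, and on the TPM as deposited 6 of the 9 rises fall below 0.

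In the mean of the cocaine effects under both labels, which uses the same libraries again and does not depend on which cocaine group is which genotype, 1 of 66 members was called, against 2.07% of all tested genes. By the adjusted p alone 6 members rose (9.09%) and 4 fell (6.06%), against 17.4% and 15.3% of all tested genes, so fewer members passed than the background share in either direction. Among the 6 were Kcnj9 (log2 0.29 ± 0.07, adjusted p = 0.00509), Kcnip3 (0.27 ± 0.06, adjusted p = 0.00258), Kcnk3 (0.25 ± 0.06, adjusted p = 0.00693), Kcnn1 (0.25 ± 0.05, adjusted p = 0.00145), and Kcnab2 (0.18 ± 0.06, adjusted p = 0.0317). On the TPM as deposited all 6 lay below 0, and relative to the median of all genes on that scale all 10 kept their direction. With trends in GC content and length removed, 2 members rose and 4 fell, and Kcnip3 and Kcns2 were among them. The share of all tested genes in that fit is not given here. Kcnn1 (log2 0.13, adjusted p = 0.0715), Kcnj9 (0.18, adjusted p = 0.0720), Kcnk3 (0.12, adjusted p = 0.161), Kcnab2 (0.06, adjusted p = 0.546), Kcnb2 (-0.09, adjusted p = 0.315) and Kcnc2 (-0.19, adjusted p = 0.147) no longer passed.

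Among the 17 members that passed in any comparison, Kcnip3 and Kcns2 had no overlap between the 8 saline and the 6 cocaine libraries. These members were picked by tests on the same libraries, so the lack of overlap adds no separate support. The share of all tested genes without such overlap is not given here. Kcnip3 ran from 17.0 to 20.7 scaled TPM after saline and from 21.7 to 26.3 after cocaine, and Kcns2 from 7.63 to 9.64 after saline and from 6.09 to 7.56 after cocaine. For Kcnj9, cKO cocaine replicate 1 at 34.4 lay below 3 saline libraries, control saline replicate 1 at 35.2 and cKO saline replicates 2 and 3 at 34.6 and 35.996. For Kcnk3, cKO cocaine replicate 1 at 10.7 lay among the saline libraries. The rise of Kcnk3 was lost without cKO cocaine replicate 2 (log2 0.17, adjusted p = 0.0632) and that of Kcnab2 without any of 8 single libraries (adjusted p up to 0.182). Kcns2 fell by 0.27 ± 0.06 (adjusted p = 0.00355) and Kcnb2 by 0.26 ± 0.06 (adjusted p = 0.00509). Kcnc2 fell by 0.25 ± 0.09 (adjusted p = 0.0451), and this was lost without any of 11 single libraries (log2 -0.30 to -0.21, adjusted p up to 0.136).

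**Figure D4:**
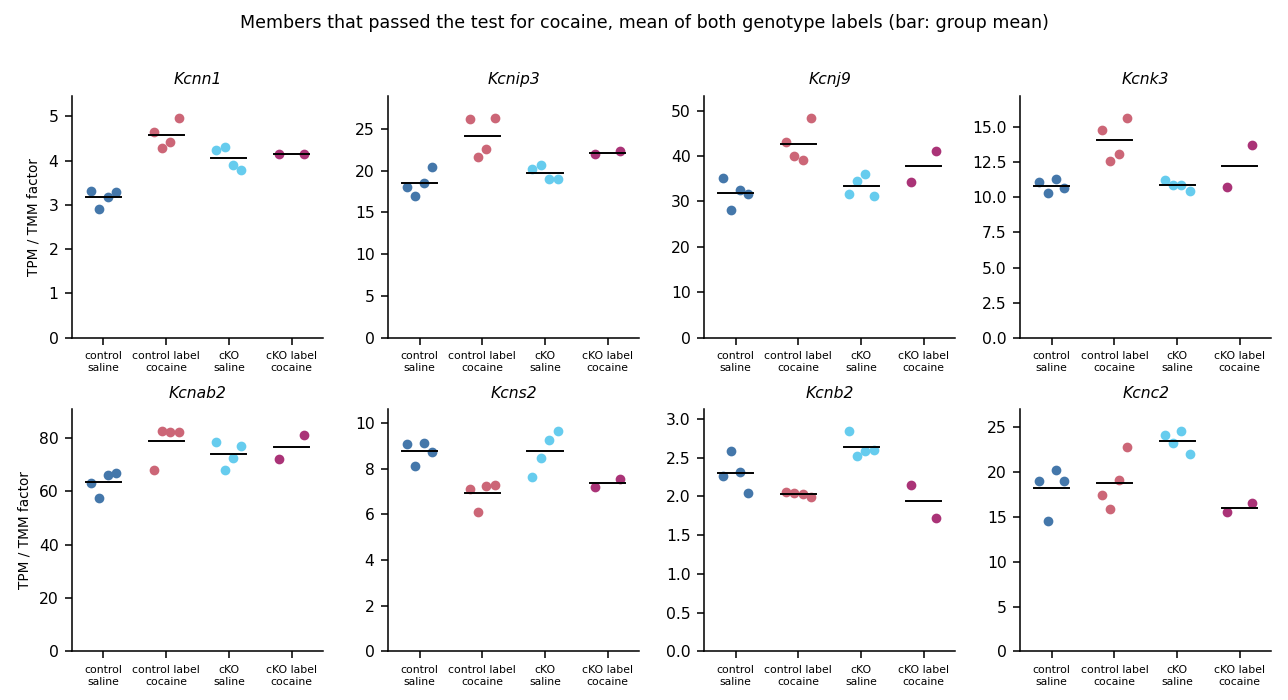
Scaled TPM (y axis from 0) of 8 members that passed the test of the mean cocaine effect, 1 point per library, with the group mean as a bar, for the 4 groups. Kcnn1 ran from 2.90 to 3.31 in control saline and from 4.30 to 4.97 under control cocaine, and Kcns2 from 8.11 to 9.14 and from 6.09 to 7.30, relative to TMM scaling.

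The promoters of members that passed in this mean were looked up in RefSeq annotation (GRCm38.p6), which held an entry for 65 of the 90 members and for 5 of these 10. The 5 are shown because they are those of the 10 with an entry. In this mean 4 of them rose (Kcnn1, Kcnip3, Kcnj9, Kcnab2) and Kcnc2 fell, and whether they share any regulation was not tested. Each sequence is the 300 bases from 250 before to 50 after the most upstream listed start, 5′ to 3′ on the gene's strand. Capitals mark the core of the cyclic AMP response element (TGACG, or CGTCA on the other strand), the AP-1 site (TGANTCA) and the TATA box (TATAAA, or TTTATA on the other strand), which are bound by activity-regulated and basal transcription factors and do not overlap each other here. The windows are chr8:70863209-70863508 (minus strand) for Kcnn1, chr2:127522045-127522344 (minus) for Kcnip3, chr1:172329273-172329572 (minus) for Kcnj9, chr4:152477500-152477799 (minus) for Kcnab2 and chr10:112269767-112270066 (plus) for Kcnc2.
Kcnn1: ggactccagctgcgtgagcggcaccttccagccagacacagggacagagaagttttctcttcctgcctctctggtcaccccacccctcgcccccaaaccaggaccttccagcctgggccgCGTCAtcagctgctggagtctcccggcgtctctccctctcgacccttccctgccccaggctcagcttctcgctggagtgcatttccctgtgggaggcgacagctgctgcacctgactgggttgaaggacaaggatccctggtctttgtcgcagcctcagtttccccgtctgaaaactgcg
Kcnip3: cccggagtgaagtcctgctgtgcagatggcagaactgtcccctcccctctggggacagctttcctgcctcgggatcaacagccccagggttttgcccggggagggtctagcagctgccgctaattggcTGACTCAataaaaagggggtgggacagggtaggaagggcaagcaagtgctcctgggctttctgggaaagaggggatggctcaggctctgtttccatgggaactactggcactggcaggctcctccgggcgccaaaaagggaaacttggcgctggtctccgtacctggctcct
Kcnj9: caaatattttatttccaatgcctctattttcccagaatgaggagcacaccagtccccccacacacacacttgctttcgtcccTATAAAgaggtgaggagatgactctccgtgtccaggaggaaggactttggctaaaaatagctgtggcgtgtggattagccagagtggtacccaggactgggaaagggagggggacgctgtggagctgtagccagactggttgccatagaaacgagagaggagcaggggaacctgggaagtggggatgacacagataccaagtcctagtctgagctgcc
Kcnab2: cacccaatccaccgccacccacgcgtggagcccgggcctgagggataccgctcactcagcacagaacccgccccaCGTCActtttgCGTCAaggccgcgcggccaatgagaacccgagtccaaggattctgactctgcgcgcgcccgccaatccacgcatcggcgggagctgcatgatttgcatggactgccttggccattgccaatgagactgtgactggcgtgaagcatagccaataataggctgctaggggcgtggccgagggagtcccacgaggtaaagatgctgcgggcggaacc
Kcnc2: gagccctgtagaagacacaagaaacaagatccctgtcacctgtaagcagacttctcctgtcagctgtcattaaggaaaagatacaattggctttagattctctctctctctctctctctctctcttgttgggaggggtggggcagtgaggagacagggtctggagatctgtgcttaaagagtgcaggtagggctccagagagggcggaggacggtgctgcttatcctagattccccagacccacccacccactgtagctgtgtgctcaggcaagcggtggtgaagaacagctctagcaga

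Kcnab2 held 2 cyclic AMP response element cores and Kcnn1 held 1, Kcnip3 held 1 AP-1 site, Kcnj9 held 1 TATA box, and the Kcnc2 window held none of these letters. Over all 32851 promoters of this length, 20.8% held the cyclic AMP response element core, 7.81% the AP-1 site and 13.6% the TATA box, against 16.9%, 4.49% and 4.49% of the 89 promoters of members. The Kcnc2 window had 3 CpG dinucleotides and 52.7% GC, against 25 and 62.7% in Kcnab2 and 13 and 62.3% in Kcnn1. In GENCODE annotation (GRCm38) Kcna5, Kcna1 and Kcna6 lie in a row on the minus strand of chromosome 6, at chr6:126532551-126535412, chr6:126640397-126646384 and chr6:126708329-126740674. Under the control label the first of these neighbours fell with cocaine while the other two rose. Kcnj9 (chr1:172320501-172329318, minus strand) and Kcnj10 (chr1:172341210-172374085, plus strand) point away from each other with 11.9 kb between them, and of this pair Kcnj9 passed and Kcnj10 did not (log2 0.11 ± 0.06, adjusted p = 0.158, in the mean of both labels).

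The comparison of cKO with control mice after saline asked what loss of Maged1 in Vglut2 cells did without cocaine. No member was called and none passed the adjusted p from limma, against 0.0445% and 0.156% of all tested genes. At an unadjusted p under 0.05 there were 14 members higher and 4 lower in cKO saline, 27.3% of the members against 16.7% of all tested genes. The median log2 difference was 0.09 for the members and 0.01 for all genes. The smallest adjusted p-values were those of Kcna1 (log2 0.56 ± 0.10, adjusted p = 0.0508), Kcnn1 (0.31 ± 0.06, adjusted p = 0.0645) and Kcna2 (0.32 ± 0.06, adjusted p = 0.0676).

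Kcna1 stood at 17.4, 15.4, 18.7 and 18.0 scaled TPM in control saline and at 29.7, 24.2, 25.4 and 24.4 in cKO saline, so the groups did not overlap. It passed without control cocaine replicate 1, 3 or 4 (adjusted p = 0.0114, 0.0490 and 0.0462), which enter this fit through the shared spread, and also with a pseudocount of 1 (adjusted p = 0.0468), a filter at a mean of 5 TPM (0.0316) and without the 3 libraries whose marker lists stood apart (0.0441). Kcna1 did not pass when any single saline library was left out, or with only the groups compared. Nor did it pass with median-of-ratios scaling, a pseudocount of 0.1, no filter, the replicate block, or trends in GC content and length removed. Kcna2 was at 26.0, 25.8, 28.2 and 30.7 in control saline and at 38.8, 33.1, 35.1 and 31.8 in cKO saline, also without overlap. Kcnq3 (log2 0.37 ± 0.08) and Kcnj3 (0.33 ± 0.07) both had an adjusted p of 0.0734 and no overlap. Kcnip1 was lower in each cKO saline library than in each control saline library, at 5.67 to 8.56 against 10.3 to 13.7 (log2 -0.69 ± 0.19, adjusted p = 0.114). The same order held for the sums of the ependyma markers (4.67 to 19.5 against 28.6 to 31.2) and of the habenula markers (11.3 to 55.9 against 58.7 to 86.6). All 7 and all 9 of them had a log2 fold change below 0, none passed the adjusted p, and their part in the value of Kcnip1 was not tested. This comparison and the cocaine comparison under the control label share the control saline libraries, so that a low or high value there enters both. Maged1 was also lower in both (log2 -1.10 and -1.08), and these shared features cannot be told apart. The 4 saline libraries whose genotype tag and title disagree are all in this comparison, 2 of the 4 in each group. With them left out no gene of the whole table passed, Maged1 included, and that fit has fewer libraries in each group. Whether the labels or the number of libraries led to this was not tested.

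Between the cocaine groups, cKO label against control label, no member was called and none passed the adjusted p from limma, against 0.0371% and 0.0594% of all tested genes. At an unadjusted p under 0.05 there were 2 members higher and 5 lower under the cKO label, 10.6% of the members against 12.1% of all genes. The smallest adjusted p-values belonged to Kcnn2 (log2 0.22 ± 0.08, adjusted p = 0.319), Kcna6 (-0.19 ± 0.08, adjusted p = 0.347) and Kcna5 (0.49 ± 0.20, adjusted p = 0.356). Kcna5 was at 1.34 and 1.62 scaled TPM under the cKO label, above the 0.649 to 1.25 of the control label.

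The interaction, the cocaine effect under the cKO label minus that under the control label, asked whether both differ. It sets control saline and cKO cocaine, where Maged1 was high, against cKO saline and control cocaine, where it was low. Maged1 itself had a term of 2.26 (adjusted p = 6.76e-05 by limma). A differing cocaine effect and a difference with the Maged1 level thus cannot be told apart here. The interaction called 1 of 66 members, Kcnq3, against 0.854% of all tested genes. By the adjusted p alone 2 members (3.03%) passed, Kcnq3 and Kcnn1, against 1.35%. The term was -0.59 ± 0.12 for Kcnq3 (adjusted p = 0.0418), which was at 19.1, 16.7, 20.8 and 19.9 scaled TPM in control saline and at 22.8, 20.6, 20.8 and 24.6 under control cocaine. Under the control label these groups overlapped and the change of 0.21 ± 0.08 did not pass (adjusted p = 0.0629), while under the cKO label Kcnq3 fell, as given above. For Kcnn1 the term was -0.44 ± 0.09 (adjusted p = 0.0449). It was at 4.24, 4.30, 3.90 and 3.79 in cKO saline and each library labelled cKO cocaine stood at 4.16. Its fitted change under the cKO label was 0.03 ± 0.07 (adjusted p = 0.791). Kcnq3 was lost without any of 10 single libraries and Kcnn1 without any of 11, namely all except control saline replicate 3, control cocaine replicates 1 and 2 and cKO saline replicate 4 for Kcnq3 and control cocaine replicates 1 and 2 and cKO saline replicate 4 for Kcnn1 (adjusted p up to 0.175 and 0.150).

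Kcna2 (-0.45 ± 0.10, adjusted p = 0.0515), Kcna1 (-0.69 ± 0.16, adjusted p = 0.0527) and Kcnj3 (-0.48 ± 0.11, adjusted p = 0.0542) had interaction terms of the same sign that did not pass with all libraries. Among the 66 members 48 terms were below 0, with a median of -0.15, and 18 above, against 7463 of 13471 genes and a median of -0.03. Kcnip1 and Kcna5 had terms above 0, at 1.01 ± 0.30 (adjusted p = 0.0939) and 0.91 ± 0.25 (adjusted p = 0.0828). Without the 3 libraries whose marker lists stood apart, Kcna1 (-0.81 ± 0.13), Kcna2 (-0.48 ± 0.11), Kcna6 (-0.41 ± 0.09) and Kcnip1 (1.14 ± 0.23) passed, and Kcnq3 and Kcnn1 did not. Scaled Maged1 was at 150 to 166 in control saline and 152 and 174 under cKO cocaine, against 64.5 to 78.0 in cKO saline and 58.5 to 87.9 under control cocaine.

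**Figure D5:**
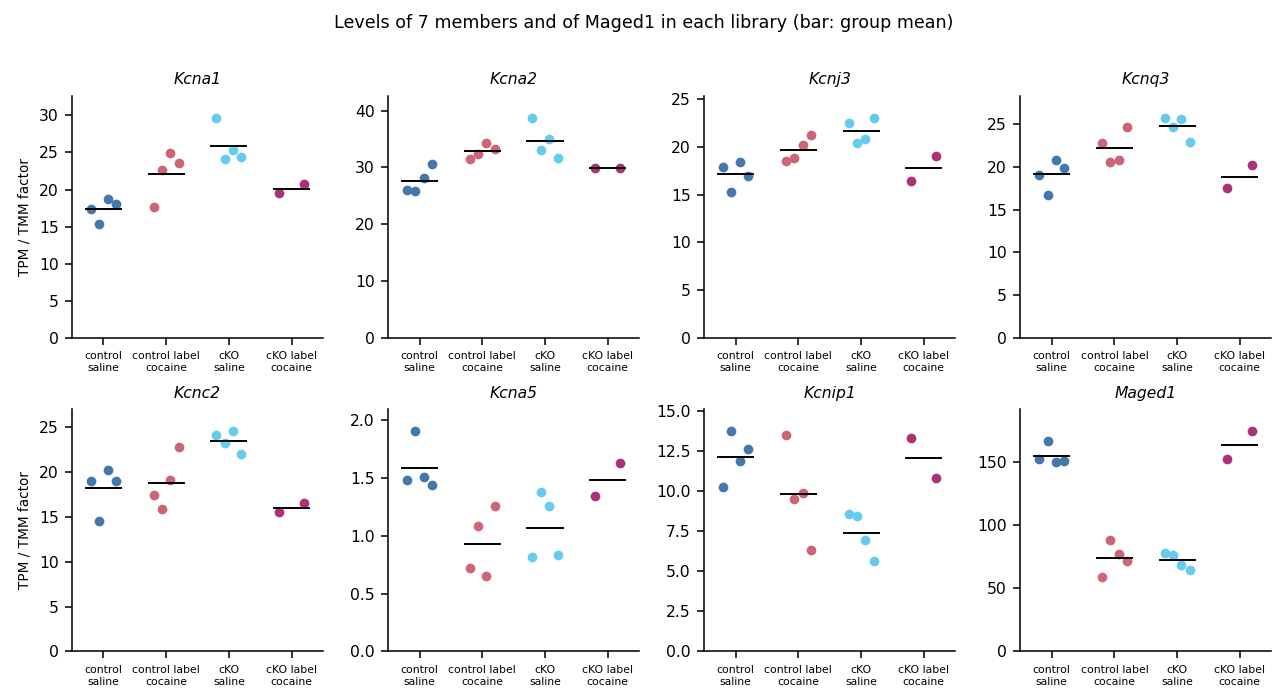
Scaled TPM (y axis from 0) of 7 members and of Maged1 in each library, with the group mean as a bar, for the 4 groups. Kcna1 ran from 15.4 to 18.7 in control saline and from 24.2 to 29.7 in cKO saline, while Kcnip1 ran from 10.3 to 13.7 and from 5.67 to 8.56.

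Summed over members, the family as a whole stood at 787 to 851 scaled TPM in control mice and 894 to 935 in cKO mice after saline. After cocaine it stood at 906 to 974 under the control label and at 858 and 913 under the cKO label. The auxiliary subunits summed to 163 to 187 in control saline and to 205 to 220 under control cocaine, and the inward rectifiers to 146 to 161 and to 172 to 199. The EAG, ERG and ELK genes summed to 36.8 to 39.4 and to 38.3 to 39.2. These sums are led by a few abundant genes, Kcnab2 and Kcnj10 among them, and are given as a description.

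Proteins that bind or place potassium channels were examined as a list of 21 genes, of which 18 were tested. Under the control label 5 rose with cocaine, 1 fell and none was called, against 15.0% higher and 9.35% lower over all tested genes. The genes of this list and the next lie outside the rule for named genes and were chosen after their values were seen. Dpp6, an extracellular partner of Kcnd channels, rose by a log2 value of 0.29 ± 0.05 (adjusted p = 0.00156), Dlg4, a scaffold that clusters Kcna channels, by 0.26 ± 0.05 (adjusted p = 0.00326), Adam23, a partner in the Lgi1 complex, by 0.41 ± 0.08 (adjusted p = 0.00382), Abcc8, the sulfonylurea receptor of the ATP-sensitive channel, by 0.31 ± 0.08 (adjusted p = 0.0141) and Cntn2, which anchors Kcna channels beside the nodes of myelinated axons, by 0.24 ± 0.08 (adjusted p = 0.0381). Dlg1 fell by 0.23 ± 0.07 (adjusted p = 0.0263). Under the cKO label 1 gene of the list passed, Vapa, which fell by 0.23 ± 0.05 (adjusted p = 0.00725), against 10.7% of all tested genes that fell there. The list's median log2 fold change was 0.06 under the control label and -0.02 under the cKO label, and that of all genes was 0.01 and 0.00.

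Potassium pumps and cotransporters, which restore the gradient that the channels spend, were a list of 11 genes with 10 tested and none called. Their median log2 fold change was 0.09 under the control label and -0.02 under the cKO label. Under the control label 3 rose and none fell, against 15.0% and 9.35% of all tested genes. Among the 3 was Atp1b2, the glial sodium pump beta subunit (log2 0.44 ± 0.05, adjusted p = 0.000126). Under the cKO label Atp1b2 rose (0.32 ± 0.06, adjusted p = 0.00307) and Slc12a2, a chloride importer, fell by 0.46 ± 0.14 (adjusted p = 0.0394). Of all tested genes 9.19% rose and 10.7% fell there. In the mean of both labels Atp1b2 rose by 0.38 ± 0.04 (adjusted p = 2.35e-05). Between genotypes no gene of either list passed the adjusted p after saline or after cocaine.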

How the data were processed

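Thalamic RNA was sequenced after ribosomal RNA depletion with a stranded kit. Per the study's methods and the submitters' processing notes, the authors aligned reads with STAR 2.5.3a to GRCm38 (GRCm38.p4, mm10), estimated abundances with Salmon and deposited 1 table of TPM per library. In 2 of these deposited TPM tables a comma stands for the decimal point, and it was replaced. TPM keep no depth, so the depth and the counting error of each library are unknown. Of the 15 samples, 1 labelled cKO cocaine was not analysed here. Groups were taken from the sample titles.

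TPM were divided by TMM factors computed without weights (trims of 30% and 5%), and log2(value + 0.5) was fitted with limma 3.58.1 (R 4.3.3, trend, 1 mean per group) for the 13471 genes at 1 TPM or more in at least 3 libraries, with 6 contrasts and Benjamini-Hochberg adjustment over all genes in each. Fold changes are on this log2(TPM + pseudocount) scale, which understates changes of low genes. The scaling, filter and limma fit were tested on simulated data, for cocaine under the control label and for the genotypes after saline. Genes named were those called, the 3 with the smallest adjusted p where none was called, the highest of each subfamily and members known from thalamic or glial cells. The members and lists were chosen with earlier results of these data known. Alternatives were the TPM as deposited, median-of-ratios scaling, pseudocounts of 0.1 and 1, no filter, a filter at a mean of 5 TPM, a replicate block, trends in GC content and length removed, only libraries whose title and tag agree, only the groups compared, leaving out each library and, chosen after seeing the data, leaving out 3 libraries whose marker lists stood apart. Promoters were read from RefSeq annotation. The values of some genes are not reported here, while counts over members and lists include every gene tested.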

Additional observations from a re-analysis of the deposited data

Results flagged for a closer look

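In 12 of 123 groups of 4 libraries, over 41 members, 1 library lay far from the other 3, where chance gives about 1 group in 20. Control cocaine replicate 1 stood apart for 4 members, with Kcnma1 at 54.7 scaled TPM against 33.2 to 35.9 in the other libraries of its label, Kcnab2 at 68.2 against 82.2 to 82.6, Kcnc1 at 41.9 against 56.2 to 58.6 and Kcnh2 at 17.3 against 21.1 to 21.3. In that library the habenula markers summed to 192 (11.5 to 63.5 in the other libraries of its label), the GABAergic and thalamic reticular markers to 37.0 (196 to 257) and the hypothalamic markers to 4.39 (9.07 to 129), and their part in these values was not tested. Control saline replicate 2 stood apart for Kcna5 (1.90 against 1.44 to 1.51), Kcnab1 (14.5 against 17.9 to 18.6), Kcnk9 (10.7 against 8.65 to 8.93) and Kcnmb4 (18.0 against 22.0 to 22.6), and its hypothalamic markers summed to 468. Control cocaine replicate 4 stood apart for Kcnip4 (42.2 against 32.6 to 34.1) and Kcnj8 (1.11 against 0.781 to 0.813), control cocaine replicate 2 for Kcns2 (6.09 against 7.11 to 7.30) and cKO saline replicate 4 for Kcnj10 (60.0 against 70.0 to 71.9).

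The cocaine effects under the genotype labels differed by the interaction test for Kcnn1 (log2 -0.44, adjusted p = 0.0449 by limma) and Kcnq3 (log2 -0.59, adjusted p = 0.0418 by limma), with the cocaine groups called by labels that the Maged1 level goes against. In this test a differing cocaine effect and a difference with the Maged1 level cannot be told apart.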

How the results depend on the processing

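The 25 fitted values reported for members that passed were recomputed under 609 alternatives in all, of which 468 kept their direction and side of the threshold, 131 kept the direction without passing and 10 changed sign, all on the TPM as deposited. With cocaine under the control label, 1 member was called higher with a pseudocount of 0.1 and 1 without the 3 libraries whose marker lists stood apart, against 0. The 1 called lower became 7 on the TPM as deposited and 0 with a pseudocount of 1, a filter at a mean of 5 TPM or libraries whose labels agree. Under the cKO label 1 was called higher with a filter at a mean of 5 TPM, with only the 2 groups compared and without the 3 libraries. The 1 called lower became 17 on the TPM as deposited, 2 with only the 2 groups compared, and 0 with the replicate block, with GC content and length trends removed or with libraries whose labels agree. On the TPM as deposited 70.6% of all tested genes were lower by the adjusted p alone under the control label. Under the cKO label this share was 60.3%, so the counts on that scale include a fall of most genes. The share of all tested genes called in each setting is not given here. Between genotypes after saline, 1 was called higher with a pseudocount of 1, with a filter at a mean of 5 TPM and without the 3 libraries, against 0. In the mean of both labels the 1 called lower became 7 on the TPM as deposited and 0 with no filter, a filter at a mean of 5 TPM, the replicate block or libraries whose labels agree. In the interaction 1 was called higher without the 3 libraries, and the 1 called lower became 2 with a filter at a mean of 5 TPM and 0 on the TPM as deposited, with the replicate block, with GC content and length trends removed or with libraries whose labels agree. With no fold change minimum, 9 were higher and 2 lower under the control label, 5 lower under the cKO label, 6 higher and 4 lower in the mean and 2 lower in the interaction. The cause of these changes was not tested.

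Leaving out each library in turn, the members called higher and lower ranged from 0 to 1 and from 0 to 2 under the control label, from 0 to 1 and from 0 to 1 under the cKO label, from 0 to 1 and from 0 to 0 between genotypes after saline, from 0 to 0 in both directions after cocaine, from 0 to 0 and from 0 to 1 in the mean, and from 0 to 1 and from 0 to 3 in the interaction. No pairing by replicate number was seen: the mean correlation of deviations from the group means was -0.0139 over 18 same-numbered pairs of libraries and 0.00462 over 54 others. With so few libraries per group, this cannot exclude a pairing. With the replicate block 8 members passed higher and 2 lower under the control label, 0 and 2 under the cKO label, 6 and 2 in the mean and 0 in the interaction. Of all tested genes 12.8% passed higher and 7.99% lower under the control label in that fit, and 6.93% and 7.48% under the cKO label. For the mean and the interaction this share is not given here.

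On the TPM as deposited, where the median of all genes fell by 0.34, 0.35 and 0.34 in these 3 comparisons, the log2 fold changes that turned below 0 were, with cocaine under the control label Kcna1 -0.039, Kcna2 -0.13, Kcna4 -0.27, Kcna6 -0.18, Kcnab2 -0.070, Kcnc2 -0.33, Kcnd2 -0.26, Kcnd3 -0.26, Kcnf1 -0.26, Kcnh2 -0.32, Kcnh7 -0.30, Kcnip4 -0.26, Kcnj3 -0.18, Kcnk3 -0.012, Kcnma1 -0.34, Kcnn3 -0.22, Kcnq5 -0.30. They were, with cocaine under the cKO label Kcnab2 -0.33, Kcnj10 -0.34, Kcnj16 -0.30, Kcnn1 -0.31, Kcnn3 -0.28. They were, in the mean of both labels Kcna2 -0.36, Kcna6 -0.34, Kcnab1 -0.34, Kcnab2 -0.20, Kcnc1 -0.25, Kcnd2 -0.35, Kcnf1 -0.32, Kcnh2 -0.22, Kcnip3 -0.10, Kcnj10 -0.27, Kcnj16 -0.25, Kcnj9 -0.083, Kcnk1 -0.29, Kcnk3 -0.11, Kcnma1 -0.30, Kcnn1 -0.088, Kcnn2 -0.30, Kcnn3 -0.25, Kcnt1 -0.28. The depth behind the TPM is unknown, and the cKO cocaine label rests on 2 libraries.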
